A study of Rattus norvegicus with 6 samples.

Results

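The imprinted Dlk1-Dio3 miRNA cluster is a run of microRNA (miRNA) hairpins between the genes Dlk1 and Dio3 on rat chromosome 6. Its members were taken by name, as every row of the deposited count table, either arm, of 46 listed miRNA numbers. This gave 86 of the 764 mature miRNAs in the table. The libraries were made from small extracellular vesicles, membrane-bound particles released by cells, purified from 2 ml of rat plasma. All rats were wild-type (WT) male Sprague-Dawley animals, an outbred laboratory strain, obtained at 6 to 8 weeks of age and kept on chow. The diabetic group held 3 libraries from rats at 8 weeks of diabetes, which had received intraperitoneal streptozotocin, a toxin of pancreatic beta cells, at 65 mg/kg while fasted and had a fasting glucose above 11.1 mmol/L. The control group held 3 libraries from control rats. The labels state neither what the controls were injected with nor whether the libraries stand for different animals. P-values therefore cover only the spread between these libraries, which may be technical. Streptozotocin diabetes is a model of insulin deficiency, and effects of the toxin and of the diabetes cannot be told apart in these groups.

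The genes of this domain are imprinted, which means that each is read from only the chromosome of maternal or of paternal origin. Dlk1, Rtl1 and Dio3 code for proteins and are expressed from the paternal chromosome, while the noncoding RNAs Meg3, antisense Rtl1, Rian and Mirg, which carry the miRNAs, are expressed from the maternal one. The miRNAs are abundant in the embryo, the placenta and the brain, and are lower in most adult tissues. Each hairpin is cut into a 5p and a 3p arm, and bases 2 to 8 of the loaded arm, the seed, pair with target messenger RNAs.

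RefSeq held a mature sequence for 84 of the 86 members on the GRCr8 build, all on chromosome 6. The proximal subcluster, with the hairpins of Meg3, antisense Rtl1 and Rian, had 21 members of 12 miRNA numbers, and its sequences lay in chr6:134298094-134354559, a stretch of 56.5 kb. The distal subcluster, which spans the hairpins of Mirg from miR-379 to miR-410, had 65 members of 34 numbers in chr6:134543460-134579828, a stretch of 36.4 kb. A gap of 188.9 kb separated them. All 19 proximal and 62 of 65 distal sequences lay on the plus strand. Both arms of miR-299b and the single miR-409b lay on the minus strand and were counted as distal by position. The 84 sequences had 78 different seeds, and no seed was shared between the subclusters. The 5 proximal members with the highest mean CPM (counts per library brought to a sum of 1000000), 4 of the 5 such distal members, and miR-382-3p as the other arm of one of them are shown here 5′ to 3′ from RefSeq (GRCr8), in capitals the seed. The fifth such distal member, miR-379-5p, is in the next set.
miR-127-3p: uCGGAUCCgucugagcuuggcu
miR-434-5p: aGCUCGACucaugguuugaacca
miR-434-3p: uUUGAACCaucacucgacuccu
miR-136-3p: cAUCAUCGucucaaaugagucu
miR-341: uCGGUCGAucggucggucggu
miR-382-5p: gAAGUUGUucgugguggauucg
miR-382-3p: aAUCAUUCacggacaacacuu
miR-134-5p: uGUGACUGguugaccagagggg
miR-541-5p: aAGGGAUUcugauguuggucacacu
miR-409a-3p: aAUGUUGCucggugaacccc

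A second set is shown because its members had the most extreme differences between the groups, or are like such a member in sequence or position. miR-127-5p had no entry in the table of sequences and is named only.
miR-379-5p: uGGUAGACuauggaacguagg
miR-411-5p: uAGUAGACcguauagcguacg
miR-494-3p: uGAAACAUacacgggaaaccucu
miR-543-3p: aAACAUUCgcggugcacuucu
miR-495: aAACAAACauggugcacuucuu
miR-485-5p: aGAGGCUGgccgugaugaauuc
miR-299a-3p: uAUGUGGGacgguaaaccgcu
miR-299b-3p: uAUGUGGGacgguaaac

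miR-379-5p and miR-411-5p, from neighbouring hairpins, were identical at 14 of 21 positions when aligned at their 5′ ends, and at 6 of 7 seed positions. miR-543-3p and miR-495, also neighbours, were identical at 17 of 21 positions and shared a run of 11 bases, but only 5 of 7 seed positions. The sequence of miR-299b-3p lay whole within miR-299a-3p, although the hairpins are on opposite strands. Reads of these 2 entries can therefore not be told apart over those 17 bases, and their single values are uncertain. Close but not the same were miR-300-3p and miR-381-3p, identical at 17 of 18 positions, and miR-376a-3p and miR-376b-3p, at 18 of 21.

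The cluster was a minor part of the vesicle miRNAs. Library totals ran from 6254077 to 8930730 counts, and 0 counts in a library left room for at most 0.336 to 0.48 CPM, for counting error only. Of the 86 members, 24 had no count in any library and 62 had at least 1, while 30 had counts in all 6 libraries. A level of 100 counts was reached in at least 3 libraries by 7 members and in all 6 libraries by 5. These 7 members, miR-409a-3p, miR-127-3p, miR-134-5p, miR-541-5p, miR-382-5p, miR-379-5p and miR-434-3p, held 73.8% of the cluster's 13733 counts. miR-127-3p alone held 42.5% of proximal counts, and the 5 leading distal members held 79.6% of distal counts.

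The filter on low counts, a CPM of at least 1.33 in 3 libraries, kept 28 members, 11 proximal and 17 distal, and 362 miRNAs of the whole table. Of the 28 members, 25 passed with libraries of both groups over that level. miR-127-5p and miR-411-5p passed through the 3 diabetic libraries only, where they are high, and miR-543-3p through the 3 control libraries only, against 5 of all 362 miRNAs that passed through 1 group only. These 3 members had to differ in that direction to be tested, so their differences below are descriptions and support nothing about the cluster. The other 58 members were not tested, and 34 of these had 1 to 40 counts over all libraries (median 7.5), or 2.88% of the cluster's counts together. The untested proximal member with most counts was miR-136-5p, with 10, 14 and 8 counts in diabetic replicates 1, 2 and 3 and 2, 0 and 5 in control replicates 1, 2 and 3. The untested distal member with most counts was miR-381-3p, with 10, 10 and 2 counts in diabetic replicates 1, 2 and 3 and 2, 6 and 10 in control replicates 1, 2 and 3. Of 8 further entries of the locus outside the member rule (among them miR-673, miR-1188, miR-1193 and miR-3072), 4 had counts, with 8 in all, and 0 were tested.

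Most hairpins were read mainly from 1 arm, while miR-434 had 474 counts of its 5p and 848 of its 3p arm. Of 40 hairpins listed with both arms, 37 had counts and 17 of these had counts from 1 arm only. Among the 27 hairpins with at least 20 counts, the 3p arm led in 7 of 8 proximal and 11 of 19 distal hairpins, and the 5p arm in 1 proximal and 8 distal ones. The distal miR-379, miR-134 and miR-541 were read almost wholly from the 5p arm, with 1050 against 1, 1639 against 1 and 1431 against 2 counts, and miR-409a from the 3p arm, with 2080 against 11.

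Only miR-127, miR-434 and miR-382 had both arms among the tested members. The 5p share of miR-434 counts was 32.0%, 46.7% and 21.4% in diabetic and 26.4%, 28.1% and 50.9% in control replicates 1, 2 and 3, so the groups overlapped. The 5p share of miR-382 counts was 78.0%, 89.0% and 91.9% in diabetic and 88.5%, 86.2% and 83.4% in control replicates 1, 2 and 3, again with overlap. The 5p share of miR-127 counts was 6.89%, 8.26% and 5.04% in diabetic and 4.4%, 0% and 0% in control replicates 1, 2 and 3. The diabetic shares were therefore all above the control shares for miR-127. The control shares rest on 11 counts of the 5p arm in replicate 1 and on 0 in replicates 2 and 3. miR-127-5p passed the filter on low counts only through the diabetic libraries, where it is high. A higher diabetic 5p share was therefore favoured by the choice of hairpins with both arms tested.

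**Figure D1:**
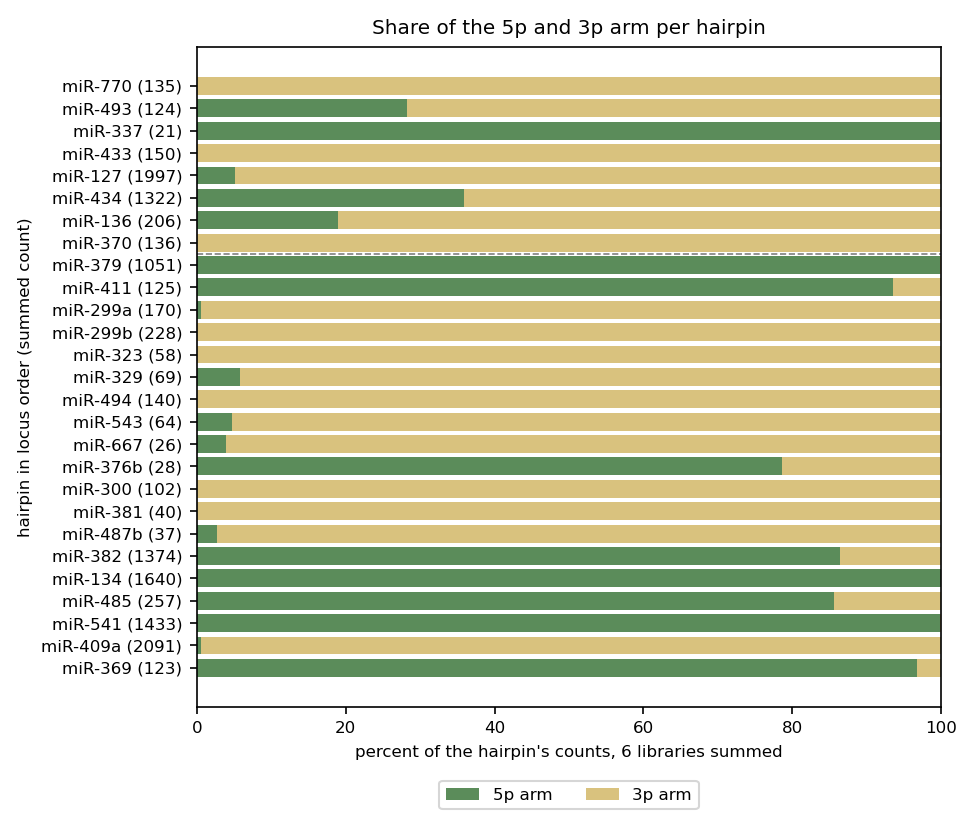
Share of each hairpin's counts from the 5p arm and the 3p arm (percent, 6 libraries summed) for the 27 hairpins with at least 20 counts, in locus order, with the summed count in brackets and proximal hairpins above the dashed line. The 3p arm leads in 7 of 8 proximal hairpins, while the distal hairpins are split, with the 5p arm leading in 8 of 19.

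The study set diabetic against control vesicles to find miRNAs that change with diabetes. 0 of the 28 tested members passed edgeR's quasi-likelihood test at an adjusted p of 0.05 over all tested miRNAs, against 6 of 362 (1.66%) in the whole table. The lowest adjusted p among the members was 0.108. At an unadjusted p under 0.05 there were 5 of 28 members, against 82 of 362 (22.7%) in the whole table. Of these 5, 3 were higher and 2 lower in diabetic libraries, against 11.0% of all tested miRNAs higher and 11.6% lower. The 5 include the 3 members that passed the filter through 1 group only, and the other 2 are miR-379-5p and miR-485-5p. Groups did not overlap for 2 of the 28 members, miR-411-5p and miR-543-3p, both among those 3, against 101 of 362 (27.9%). DESeq2 called 1 member, miR-379-5p, against 38 of the 447 miRNAs to which it gave an adjusted p (8.5%). The limma-voom fit called 0 members, against 1.1% of all 362 miRNAs. The authors' deposited table gives 3 members a false discovery rate under 0.05, miR-379-5p, miR-411-5p and miR-127-5p, at log2 fold changes of 2.50, 2.39 and 3.27 on its scale of mean CPM, against 63 of its 764 miRNAs (8.25%).

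Fold changes depended on how libraries were scaled to each other. The main scaling was the trimmed mean of M values (TMM), and normalized CPM are CPM computed on the TMM-scaled library size. TMM factors were 1.12 to 1.27 in diabetic and 0.702 to 0.978 in control libraries. The median log2 fold change of all 362 miRNAs was 0.02 with TMM and 0.61 with library size only, so a member is read against that shift. Fewer vesicles from a tissue and fewer copies per vesicle cannot be told apart in these levels. The median of the 28 members was 0.08 with TMM and 0.70 with library size only, and 18 members lay above 0 with TMM (64.3%, against 50.6% of all 362). With library size only, 2 members were called, both higher, against 45 of 362 (12.4%) called higher and 13.5% called in either direction. They were miR-379-5p and miR-411-5p, and miR-411-5p passed the filter on low counts only through the diabetic libraries. Across 5 scalings, 9 members kept a log2 fold change above 0, 4 stayed below 0 and 15 changed sign. Of all 362 miRNAs, 35.9% stayed above 0, 27.1% stayed below 0 and 37.0% changed sign. The scalings shift all miRNAs nearly alike, with medians from -0.28 with upper quartile factors to 0.61 with library size only, so a change of sign says only that a value lay close to 0. The 4 that stayed below 0 were all distal, miR-494-3p, miR-543-3p, miR-495 and miR-485-5p. Among them, miR-543-3p passed the filter on low counts only through the control libraries, so its direction was a condition of its test. Of the 9 that stayed above 0, 4 were proximal (miR-431, miR-127-5p, miR-136-3p and miR-341) and 5 distal (miR-379-5p, miR-411-5p, miR-329-3p, miR-134-5p and miR-369-5p), and miR-329-3p stood at only 0.00024 with upper quartile factors. miR-127-5p and miR-411-5p, counted here and among the 18 above 0 with TMM, passed the filter only through the diabetic libraries. Their direction was likewise a condition of their test.

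**Figure D2:**
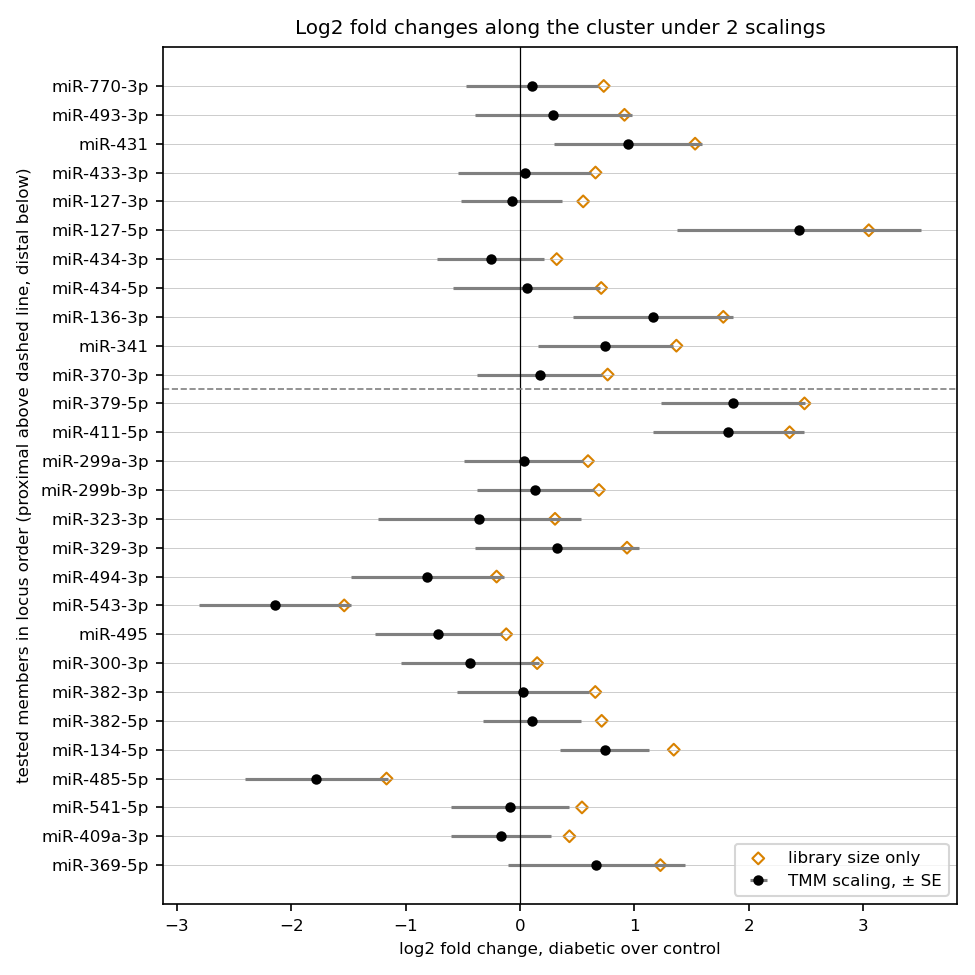
Log2 fold change of diabetic over control libraries (x axis) for the 28 tested members in locus order, with proximal members above the dashed line. Filled points are TMM estimates with their standard error, and open diamonds are estimates with library size only. Library size only moves every member to the right, with a median of 0.70 against 0.08, while miR-543-3p and miR-485-5p stay well below 0.

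No abundant member of the proximal subcluster passed the test. miR-127-3p, whose hairpin lies antisense to Rtl1 and which represses Rtl1 in mouse, had 32.6, 63.3 and 26.0 normalized CPM in diabetic replicates 1, 2 and 3, against 33.4, 34.7 and 60.3 in control replicates 1, 2 and 3. Diabetic replicate 2 and control replicate 3 were the high libraries, the groups overlapped, and the log2 fold change was -0.07 (SE 0.44). miR-434-3p, also antisense to Rtl1, had 14.0, 24.5 and 10.9 normalized CPM in diabetic replicates 1, 2 and 3, against 30.4, 16.4 and 12.2 in control replicates 1, 2 and 3 (log2 fold change -0.26, SE 0.47). Its other arm, miR-434-5p, had 6.6, 21.5 and 2.97 normalized CPM in diabetic and 10.9, 6.38 and 12.6 in control replicates 1, 2 and 3 (log2 fold change 0.06, SE 0.64). The diabetic libraries held both the highest and the lowest value of miR-434-5p. The adjusted p of these 3 members in edgeR's quasi-likelihood test was 0.938, 0.773 and 0.964.

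The other proximal members were low. miR-136-3p, the last hairpin antisense to Rtl1, had 5.24, 7.46 and 1.06 normalized CPM in diabetic replicates 1, 2 and 3, against 1.26, 2.13 and 2.83 in control replicates 1, 2 and 3. miR-341, a rodent miRNA, had 8.91, 8.39 and 1.8 normalized CPM in diabetic replicates 1, 2 and 3, against 3.21, 3.43 and 4.79 in control replicates 1, 2 and 3. In both, diabetic replicates 1 and 2 lay above all controls and diabetic replicate 3 below all of them, with log2 fold changes of 1.16 (SE 0.70) and 0.75 (SE 0.59). miR-127-5p, the minor arm of the miR-127 hairpin, had 23, 55 and 13 counts in diabetic replicates 1, 2 and 3, against 11, 0 and 0 in control replicates 1, 2 and 3. In normalized CPM diabetic replicate 3, at 1.38, lay just below control replicate 1, at 1.54. Its log2 fold change of 2.44 (SE 1.06) had an unadjusted p of 0.0437 and, in the edgeR test, an adjusted p of 0.203. This fold change rests on 2 control libraries at 0, and miR-127-5p was tested only because its diabetic libraries were high. Over all 14 alternatives its adjusted p ran from 0.0215 to 0.471. Without control replicate 1 the adjusted p in the edgeR test was 0.0273, and no fold is given since both remaining controls were at 0. Among all tested miRNAs, 49 were called without that library, against 6 with all libraries. In the other alternatives the log2 fold change ran from 1.71, without diabetic replicate 2, to 3.49, with limma-voom. The remaining proximal members, miR-770-3p, miR-493-3p, miR-431, miR-433-3p and miR-370-3p, lay at log2 fold changes of 0.10, 0.29, 0.94, 0.04 and 0.17.

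**Figure D3:**
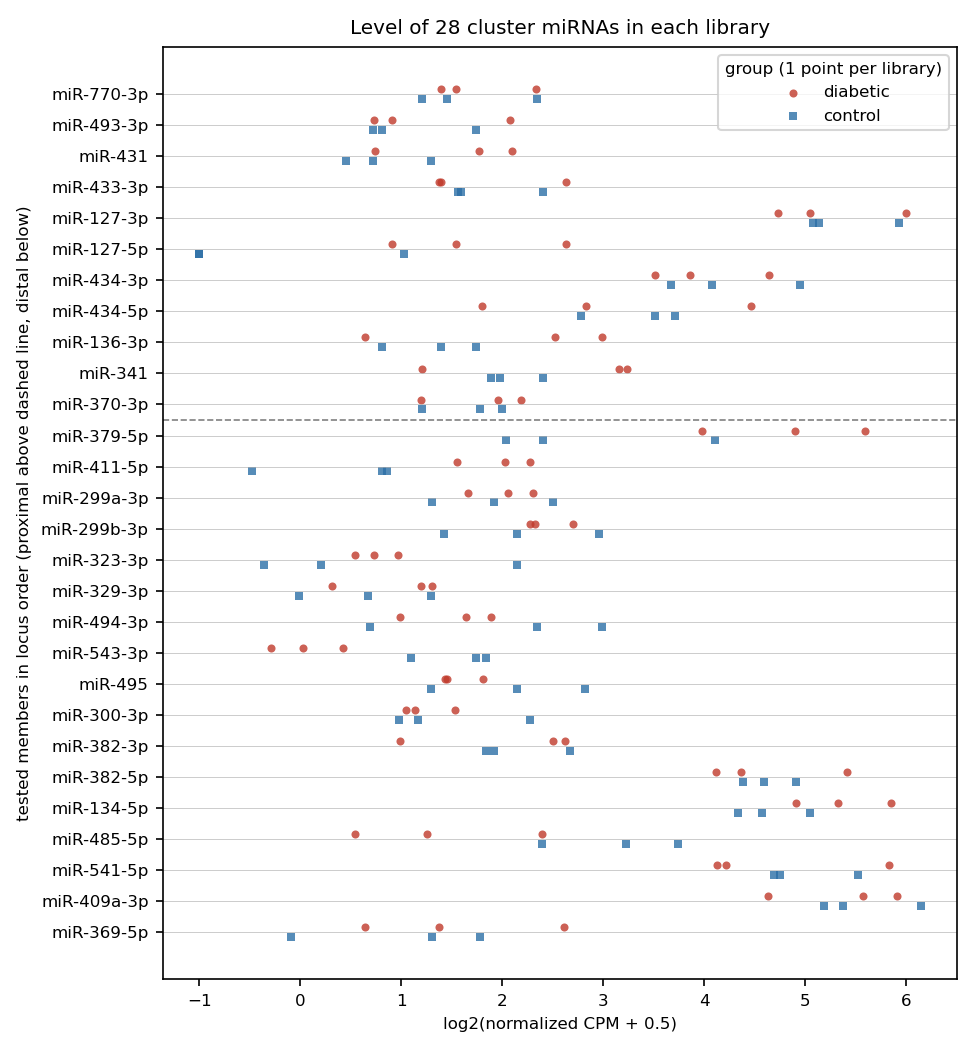
Level of the 28 tested members in each library, as log2(normalized CPM + 0.5), in locus order with proximal members above the dashed line; circles are the 3 diabetic and squares the 3 control libraries. The groups overlap in all tested members but miR-411-5p and miR-543-3p.

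In the distal subcluster the first pair of hairpins had the highest log2 fold changes. miR-379-5p, which in mouse liver responds to glucocorticoids, had 29.3, 47.8 and 15.3 normalized CPM in diabetic replicates 1, 2 and 3, against 16.7, 3.6 and 4.79 in control replicates 1, 2 and 3. Control replicate 1 was far above the other controls and above diabetic replicate 3, so the groups overlapped. The log2 fold change was 1.86 (SE 0.63), with an unadjusted p of 0.0136 and, in the edgeR test, an adjusted p of 0.121. Without control replicate 1 it was 2.86 with an adjusted p of 0.0143 in the same edgeR test. Leaving out that library also raised the calls among all tested miRNAs from 6 to 49, so the gain was not particular to miR-379-5p. With library size only the log2 fold change of miR-379-5p was 2.49 with an adjusted p of 0.0337. Over all 14 alternatives the adjusted p ran from 0.00555 to 0.351, and every log2 fold change was at least 1.39.

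miR-411-5p, from the next hairpin, was scarcer. It had 3.56, 4.35 and 2.44 normalized CPM in diabetic replicates 1, 2 and 3, against 1.26, 1.31 and 0.218 in control replicates 1, 2 and 3. The groups did not overlap, with the diabetic libraries higher, on 34, 42 and 23 counts against 9, 8 and 1. miR-411-5p passed the filter on low counts only through the diabetic libraries, so a difference in this direction was a condition of its test. The log2 fold change was 1.82 (SE 0.66), with an unadjusted p of 0.0192 and, in the edgeR test, an adjusted p of 0.139, or 0.049 with library size only. Over all 14 alternatives the adjusted p ran from 0.049 to 0.342. The opposite arms of these hairpins were close to empty, with 1 count of miR-379-3p and 8 of miR-411-3p, all in diabetic libraries. The next hairpin, miR-299, did not share the difference: miR-299a-3p and miR-299b-3p, summed because they share sequence, had 78, 101 and 66 counts in diabetic and 89, 44 and 19 in control replicates 1, 2 and 3, and their log2 fold changes were 0.03 and 0.13.

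miR-543-3p and miR-485-5p lay at the other end. miR-543-3p had 0.838, 0.518 and 0.318 normalized CPM in diabetic replicates 1, 2 and 3, against 3.07, 1.64 and 2.83 in control replicates 1, 2 and 3. The groups did not overlap, with the diabetic libraries lower, on 8, 5 and 3 counts against 22, 10 and 13. miR-543-3p passed the filter on low counts only through the control libraries, so a difference in this direction was a condition of its test. The log2 fold change was -2.14 (SE 0.66), with an unadjusted p of 0.00867 and, in the edgeR test, an adjusted p of 0.108, and -1.54 with library size only. Over all 14 alternatives its adjusted p ran from 0.0443 to 0.275. miR-494-3p, whose hairpin lies before it with that of miR-666 between them, and its neighbour miR-495 stood at -0.81 (SE 0.67) and -0.72 (SE 0.56), and in both the control libraries held the highest and the lowest value.

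miR-485-5p, which lowers the synaptic vesicle protein SV2A in rat hippocampal neurons, had 1.89, 4.76 and 0.955 normalized CPM in diabetic replicates 1, 2 and 3, against 4.75, 8.83 and 12.9 in control replicates 1, 2 and 3. Diabetic replicate 2 and control replicate 1 were nearly equal, at 46 and 34 counts, and the other libraries were separated. The log2 fold change was -1.78 (SE 0.63), with an unadjusted p of 0.0166 and, in the edgeR test, an adjusted p of 0.128, and over all 14 alternatives the adjusted p ran from 0.027 to 0.356. Without diabetic replicate 2 the log2 fold change was -2.62.

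**Figure D4:**
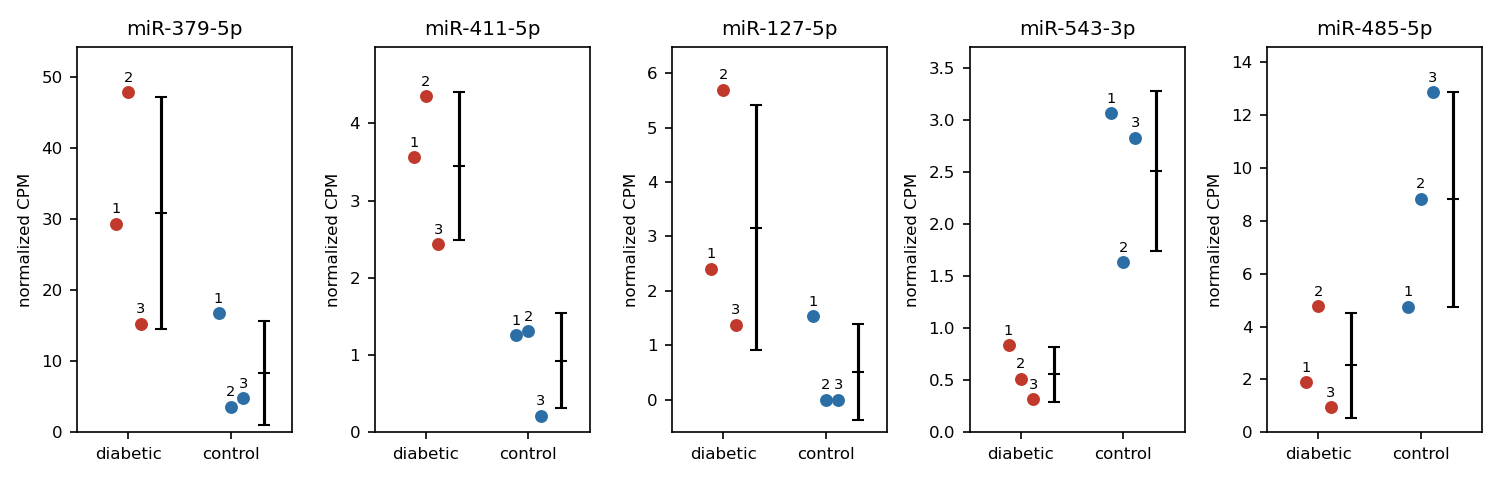
Normalized CPM in each library (numbered by replicate) of the 5 members with an unadjusted p under 0.05, diabetic libraries left and control libraries right in each panel; the bar beside each group is its mean ± SD. miR-379-5p, miR-411-5p and miR-127-5p are higher on average in diabetic libraries, with control replicate 1 reaching into the diabetic range for miR-379-5p and miR-127-5p, and miR-543-3p and miR-485-5p are lower.

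The abundant members further along the distal subcluster did not pass the test, and miR-134-5p had the widest difference among them. miR-134-5p, which limits the size of dendritic spines in rat hippocampal neurons, had 39.5, 57.1 and 29.5 normalized CPM in diabetic replicates 1, 2 and 3, against 19.7, 23.2 and 32.7 in control replicates 1, 2 and 3. Control replicate 3 lay above diabetic replicate 3, and the log2 fold change was 0.74 (SE 0.39), with an edgeR adjusted p of 0.267 or 0.0525 with library size only. miR-382-5p had 20.1, 42.0 and 16.9 normalized CPM in diabetic replicates 1, 2 and 3, against 23.6, 20.4 and 29.6 in control replicates 1, 2 and 3 (log2 fold change 0.10, SE 0.43). Its 3p arm had 5.66, 5.18 and 1.49 normalized CPM in diabetic replicates 1, 2 and 3, against 3.07, 3.27 and 5.88 in control replicates 1, 2 and 3 (log2 fold change of miR-382-3p 0.03, SE 0.58). In both arms the groups overlapped, and diabetic replicate 3 was the lowest library.

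miR-541-5p had 17.0, 56.4 and 18.0 normalized CPM in diabetic replicates 1, 2 and 3, against 26.5, 25.3 and 45.5 in control replicates 1, 2 and 3 (log2 fold change -0.09, SE 0.52). miR-409a-3p, the most abundant member, had 24.3, 59.6 and 47.0 normalized CPM in diabetic replicates 1, 2 and 3, against 35.9, 40.9 and 70.4 in control replicates 1, 2 and 3 (log2 fold change -0.17, SE 0.44). In each, diabetic replicate 2 and control replicate 3 were the highest libraries, as for miR-127-3p of the proximal subcluster. The remaining distal members, miR-323-3p, miR-329-3p, miR-300-3p and miR-369-5p, lay at log2 fold changes of -0.35, 0.32, -0.43 and 0.67.

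Proximal members tended to be highest in the same library, while distal members were split over 3 libraries. Diabetic replicate 2 held the highest normalized CPM of 14 of the 28 tested members, 7 of 11 proximal and 7 of 17 distal, against 14.9% of all 362 miRNAs. Control replicate 3 was highest for 7 members, 1 proximal and 6 distal, against 87 of all 362. Control replicate 1 was highest for 5, 1 proximal and 4 distal, diabetic replicate 1 for 2 proximal members, and the other libraries for 0. Within the diabetic group replicates 2 and 3 were at opposite ends. Diabetic replicate 3 held the lowest value of 9 of the 28 members, against 17.1% of all 362, and diabetic replicate 2 of 0, against 12.4%. The median log2 fold change of the tested members was -0.37 without diabetic replicate 2, against 0.08 with all libraries.

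Summed over its members, the cluster took 320.3, 598 and 233 CPM in diabetic replicates 1, 2 and 3, against 206.03, 220.0 and 247 CPM in control replicates 1, 2 and 3. Diabetic replicate 2 was far above the rest, and diabetic replicate 3 lay below control replicate 3. The groups averaged 384 ± 190.8 CPM in diabetic and 224 ± 20.9 CPM in control libraries (SD, n = 3 each). The difference in mean log2 share was 0.66, or 0.29 without diabetic replicate 2. After TMM scaling it was 0.09, and the sums were 251, 471 and 207.5 normalized CPM in diabetic and 257, 225 and 352 normalized CPM in control replicates 1, 2 and 3.

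Both subclusters were summed in each library. Proximal members took 107, 198.7 and 62.7 CPM in diabetic and 74.5, 69.9 and 78.6 CPM in control replicates 1, 2 and 3. Distal members took 213, 399.5 and 170.0 CPM in diabetic and 132, 150.1 and 169 CPM in control replicates 1, 2 and 3. Unscaled, the lowest diabetic distal sum lay just above the highest control, while the proximal sums overlapped. After TMM scaling the distal sums overlapped too, at 167, 314 and 152 normalized CPM in diabetic and 164, 153.6 and 240.1 normalized CPM in control replicates 1, 2 and 3. The ratio of the 2 subclusters within a library does not depend on scaling between libraries. The distal share of the cluster's counts was 66.5%, 66.8% and 73.1% in diabetic replicates 1, 2 and 3, with 95% Wilson intervals of 64.6 to 68.4, 65.4 to 68.1 and 71.0 to 75.0. It was 63.9%, 68.2% and 68.2% in control replicates 1, 2 and 3, with intervals of 61.6 to 66.0, 65.7 to 70.6 and 65.9 to 70.4. The groups overlapped, and diabetic replicate 3 stood highest and control replicate 1 lowest.

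The log2 ratio of distal to proximal counts was 0.14 higher in diabetic than in control libraries, and -0.0090 without diabetic replicate 3. By the mean of log2 levels of tested members, in which scarce members weigh as much as abundant ones, the same difference was -0.30. That mean includes miR-127-5p, miR-411-5p and miR-543-3p, which passed the filter only through the group where they are high. How far the -0.30 rests on them was not tested. The median log2 fold change was 0.17 over the 11 tested proximal members, 9 of them above 0, and 0.03 over the 17 distal members, 9 of them above 0. The distal members were spread more widely, with values at both ends of the range from -2.14 to 1.86, whereas the proximal members ran from -0.26 to 2.44. The -2.14 is of miR-543-3p and the 2.44 of miR-127-5p, whose direction was a condition of being tested. Without these members the distal range began at -1.78 (miR-485-5p) and the proximal range ended at 1.16 (miR-136-3p). Those above 0 include miR-127-5p among the proximal and miR-411-5p among the distal members. These counts and medians describe the members and were not tested as a group.

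**Figure D5:**
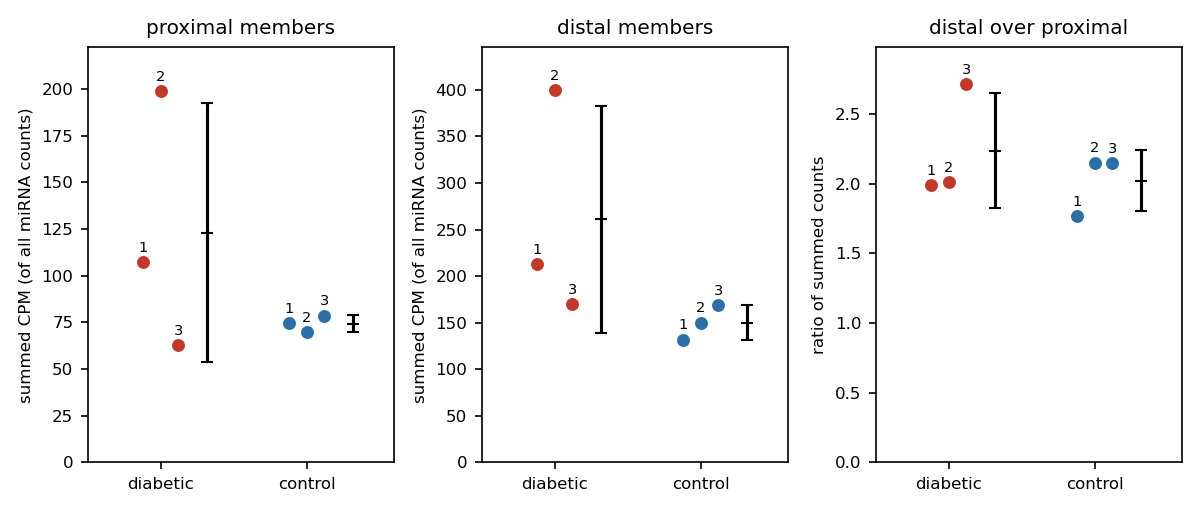
Summed CPM of proximal and distal members and the ratio of distal to proximal counts in each library (points, numbered by replicate; bars, mean ± SD, n = 3 each), diabetic left and control right. Diabetic replicate 2 stands far above the others in both sums, at 198.7 and 399.5 CPM, while its ratio of 2.01 is close to those of the control libraries.

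Lists of marker miRNAs of other tissues were set beside the summed levels of the cluster, as unscaled shares of counts. The neuron list held miR-124, miR-9a, miR-219a, miR-129 and miR-218a, and the platelet list miR-126a, miR-223, miR-199a, miR-191a and miR-24. The erythrocyte list held miR-451, miR-486, miR-144 and miR-363, the hepatocyte list miR-122, miR-192 and miR-194, and the islet list miR-375 and miR-7a. The muscle list held miR-1, miR-133a, miR-133b, miR-206, miR-208a, miR-208b and miR-499. Sums over both arms are given, and whether single entries differed or had other sources was not tested. The neuron list (11 of 13 entries counted, with miR-124-5p and miR-218a-2-3p at 0) took 0.0337% to 0.0914% of counts in diabetic and 0.0182% to 0.0305% in control libraries, without overlap. The platelet list (11 of 11 entries counted) took 4.93% to 5.64% in diabetic and 3.06% to 3.98% in control libraries, also without overlap. These differences in mean log2 share were 1.18 for the neuron and 0.54 for the platelet list, beside the shift of 0.61 for all 362 miRNAs without scaling. After TMM scaling they were 0.60 and -0.03, and the groups overlapped for both lists. The erythrocyte list (7 of 7 entries counted) ranged from 5.12% to 8.85% in diabetic and from 7.03% to 18.3% in control libraries, and the hepatocyte list (6 of 6) from 5.78% to 8.59% and from 3.15% to 21.0%. After TMM scaling the erythrocyte list was lower in all diabetic than in all control libraries, with a difference in mean log2 share of -1.003, and the hepatocyte, islet and muscle lists overlapped between the groups. The islet list (5 of 5) ranged from 0.18% to 2.56% in diabetic and from 0.149% to 2.95% in control libraries, and the muscle list (8 of 14) from 0.301% to 1.64% and from 0.0955% to 1.07%. Muscle entries at 0 were miR-133b-5p, miR-1-5p, miR-206-5p, miR-208a-5p, miR-208b-5p and miR-499-3p. The part of these lists in the levels of the cluster was not tested.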

How the data were processed

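Small RNA of 18 to 30 nucleotides from plasma vesicles was sequenced on an Illumina HiSeq instrument, per the labels' protocols. The submitters' processing notes name the build rn6. The aligner, counting tool and miRNA annotation are not given in the sources used here. The authors deposited whole-number counts per mature miRNA in 2 tables, identical in all 4584 cells. One table also holds CPM by the authors, recomputed here within 0.006, and the authors' log2 fold change of mean CPM, p-value and false discovery rate. The titles of the samples gave group and replicate number.

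The counts as deposited were filtered with filterByExpr (minimum count 10, minimum total 15), scaled by TMM and tested with edgeR's quasi-likelihood test, two-sided (edgeR 4.0.16, R 4.3.3), with Benjamini-Hochberg adjustment over all 362 miRNAs tested and a threshold of 0.05. DESeq2 1.42.0 and voom of limma 3.58.1 were alternatives, beside other scalings, no filter, a replicate block and leaving out each library. A standard error is the size of the log2 fold change over the square root of F. The fit was tested on simulated data. Depth is the library total, and intervals and the floor of 3 counts cover counting error only, since PCR copies cannot be told from molecules.

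The members and lists were chosen with earlier results of these data known. Library values were to be given for the 5 members with the highest mean CPM in each subcluster, those with an unadjusted p under 0.05, and both arms of hairpins with both arms tested. miR-494-3p, miR-495 and the summed miR-299 entries were chosen after their values were seen. RefSeq positions and sequences are of GRCr8 and were used for names, order and sequence only.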

Additional observations from a re-analysis of the deposited data

How the results depend on the processing

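The number of members called was 0 with TMM and the quasi-likelihood test, 2 with library size only and 1 with DESeq2. It was 4 with the replicate block, and 0 to 2 when each library was left out in turn. The 2 with library size only were miR-379-5p and miR-411-5p. The 4 with the replicate block were miR-127-5p, miR-379-5p, miR-543-3p and miR-485-5p. Of these, miR-411-5p, miR-127-5p and miR-543-3p passed the filter only through the group where they are high. For all miRNAs the number called was 6 of 362, against 49 of 362 with library size only (45 higher, 4 lower) and 2 of 362 with upper quartile factors. It was 38 of 447 with an adjusted p in DESeq2 (8.5%), 57 of 362 with the replicate block, and 0 to 49 with a library left out. The 49 of that range were called without control replicate 1, 26 higher and 23 lower. The share of higher calls was 2 of 6 with TMM. The replicate numbers are not linked in the labels. Deviations of same-numbered libraries correlated at 0.28, 0.0012 and 0.25 for replicates 1, 2 and 3. Diabetic replicates 1 and 3 correlated best with the control of their own number, and diabetic replicate 2 with control replicate 3, at 0.077. Whether the numbers mark pairs cannot be told from these values. The difference in log2 distal to proximal ratio of 0.14 became -0.30 by mean log2 levels and ran from -0.0090 to 0.22 with a library left out. The mean log2 levels include those of miR-127-5p, miR-411-5p and miR-543-3p. The difference in log2 summed share, 0.66, was 0.29 to 0.97 with a library left out and 0.091 after TMM scaling. For distal members it was 0.71, 0.35 to 0.97 and 0.13, and for proximal members 0.57, 0.14 to 0.98 and -0.0046. Log2 fold changes near 0 changed sign. With library size only they became 0.55 for miR-127-3p, 0.32 for miR-434-3p, 0.54 for miR-541-5p and 0.43 for miR-409a-3p. With upper quartile factors they became -0.28 for miR-434-5p, -0.34 for miR-382-3p and -0.22 for miR-382-5p. miR-434-5p stood at -0.34 with limma-voom and -0.36 with the replicate block, miR-382-3p at -0.016 with relative log expression, -0.10 with limma-voom and -0.064 with the replicate block, and miR-382-5p at -0.0048 with the replicate block. Leaving out a library gave -0.55 to 0.24 for miR-127-3p, -0.67 to 0.18 for miR-434-3p, -1.06 to 0.56 for miR-434-5p, -0.27 to 0.47 for miR-382-3p, -0.41 to 0.39 for miR-382-5p, -0.89 to 0.24 for miR-541-5p and -0.46 to 0.17 for miR-409a-3p. The causes of these changes were not tested. Of 210 values of single members under an alternative, 170 kept direction and side of the threshold, 31 changed sign and 9 newly passed the threshold. The 9 include 2 values of miR-127-5p and 1 each of miR-411-5p and miR-543-3p. The filter on low counts kept 34 counted members, with at most 40 counts each over all libraries, out of the test.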
